A study of Mus musculus with 6 samples.

Results

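The Beclin and VPS34 lipid kinase complex was examined through the 8 genes that encode its subunits and closest partners: Becn1, Pik3c3, Pik3r4, Atg14, Uvrag, Ambra1, Nrbf2 and Rubcn. They were chosen by gene symbol and not by a cutoff on measured values, although earlier results of these data were known. All 8 were among the 19060 genes of the deposited count table. Bulk RNA sequencing had been carried out on the proximal end of incisors, in 3 control and 3 mutant samples. Controls were Fgfr1fl/fl mice, in which both Fgfr1 alleles carry loxP sites and no Cre is present. Mutants were Gli1CreER;Fgfr1fl/fl mice, whose Cre becomes active in Gli1+ cells after tamoxifen (TMX). The labels give an age of 1 month and collection 1 week after TMX, and they call the controls wild type although these carry the floxed alleles. The tissue was not sorted for the Gli1+ cells in which Cre acts. In such bulk tissue, fewer cells of a type and less RNA per cell cannot be told apart.

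VPS34, the product of Pik3c3, is the class III PI3-kinase. It makes phosphatidylinositol 3-phosphate (PI3P), a lipid that recruits proteins to forming autophagosomes and to endosomes. VPS34 works with the pseudokinase VPS15 (Pik3r4) and with Beclin 1 (Becn1), and the partner that joins these decides the site of action: ATG14 directs the complex to autophagosome formation, and UVRAG directs it to endosomes and late autophagy. Signalling through mTORC1, which restrains autophagy, acts on the complex partly through AMBRA1 and ATG14. The comparison of the genotypes addresses whether the transcripts of this machinery differed after loss of Fgfr1 in Gli1+ cells of the incisor.

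The control samples held between 31060222 and 32712448 counts and the mutant samples between 5276557 and 11819576. Between 3.83 and 3.96% of genes had 0 counts in the control samples, against 30.3, 17.1 and 19.7% in mutant samples 1, 2 and 3, so mutant sample 1 stood apart as the shallowest, and results that rest on it are given with and without it. Levels are given as CPM, counts scaled to a common library size after scaling by each sample's upper quartile. Genotypes were compared with the quasi-likelihood test of edgeR, two-sided and with Benjamini-Hochberg adjustment, for the 15826 genes left by its filter on low counts. Fgfr1 itself (chr8:25513654-25575718, GRCm38) was at 529, 924 and 434 CPM in controls and at 148, 318 and 262 CPM in mutants, a log2 fold change of -1.37 ± 0.40 (SE; edgeR adjusted p = 0.0881).

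Markers of other tissues also varied between samples. The summed level of 8 skeletal muscle markers was 6.79, 2397 and 24.0 CPM in controls and 4416, 145 and 735 CPM in mutants. Acta1, skeletal actin, led them with 883 CPM in control sample 2 and 1662 CPM in mutant sample 1, and Ckm, muscle creatine kinase, had 391 and 906 CPM in the same samples. Summed epithelial markers ran from 85728 to 121502 CPM in control and from 33637 to 72631 CPM in mutant samples, without overlap. The enamel protein genes Amelx and Ambn made up most of this sum, while Odam, another enamel-organ gene and the only epithelial marker past the adjusted test, rose from 454, 776 and 607 CPM in controls to 1168, 2086 and 2958 CPM in mutants (log2 fold change 1.76, edgeR adjusted p = 0.0466). Epcam had a log2 fold change of 0.58 (adjusted p = 0.289). Summed mesenchyme and odontoblast markers ran from 26924 to 69844 CPM in control and from 24171 to 30067 CPM in mutant samples. Col1a1 and Col1a2, which encode the chains of type I collagen, had the highest means over all 6 samples, at 18511 to 50909 and 3921 to 9057 CPM in control samples and at 16455 to 22215 and 2455 to 2878 CPM in mutant samples. In mutant samples 2 and 3, Dspp, an odontoblast matrix gene, was above Col1a2, at 3498 and 3359 CPM. Erythroid markers summed to between 380 and 823 CPM in control and between 926 and 2559 CPM in mutant samples. Within this list Hba-a1, an alpha globin gene, fell from 203, 174 and 110 CPM to 18.3, 45.6 and 53.7 CPM (log2 fold change -2.04, edgeR adjusted p = 0.0460), while Hbb-bs, a beta globin gene, had a log2 fold change of 1.81 (adjusted p = 0.0727). Hba-a1 and Hba-a2 are near-identical copies, so their separate values are uncertain. Immune markers summed to 93.4 to 308 CPM in control and 190 to 264 CPM in mutant samples, endothelial markers to 146 to 243 and 118 to 134 CPM, and Schwann cell markers to 28.7 to 46.7 and 24.0 to 99.5 CPM. Among the markers reported here, Sox10 was at 0 in mutant samples 2 and 3, Myh4 in mutant sample 3, S100b and Itgam in mutant sample 1, and Myh2 in control sample 1. The part of these tissues and of depth in the results below was not tested.

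None of the 8 genes differed between the genotypes at an adjusted p under 0.05, where 6.79% of all genes tested did. That share was 1074 genes, against 135 with offsets for transcript length and GC content and 54 in a fit of protein-coding genes alone. The lowest adjusted p among the 8 was 0.268 (edgeR), for Ambra1. The study itself used an unadjusted p under 0.05 with a change of more than 1.5-fold. By that threshold 0 of the 8 were lower in mutant samples, against 8.92% of all genes, and 0 were higher, against 10.9%. By unadjusted p alone, 0 of 8 were under 0.05. DESeq2 and limma also called 0 of the 8 at an adjusted p under 0.05. The median log2 fold change of the 8 genes was -0.12, beside -0.04 over all genes tested, and 7 of the 8 values were below 0. Groups without overlap were found for 1 of the 8, Uvrag, against 30.4% of all genes tested. The plot of levels by sample shows that the SD of CPM was larger among mutant than among control samples for 6 of the 8 genes, and smaller for Ambra1 and Rubcn.

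**Figure D1:**
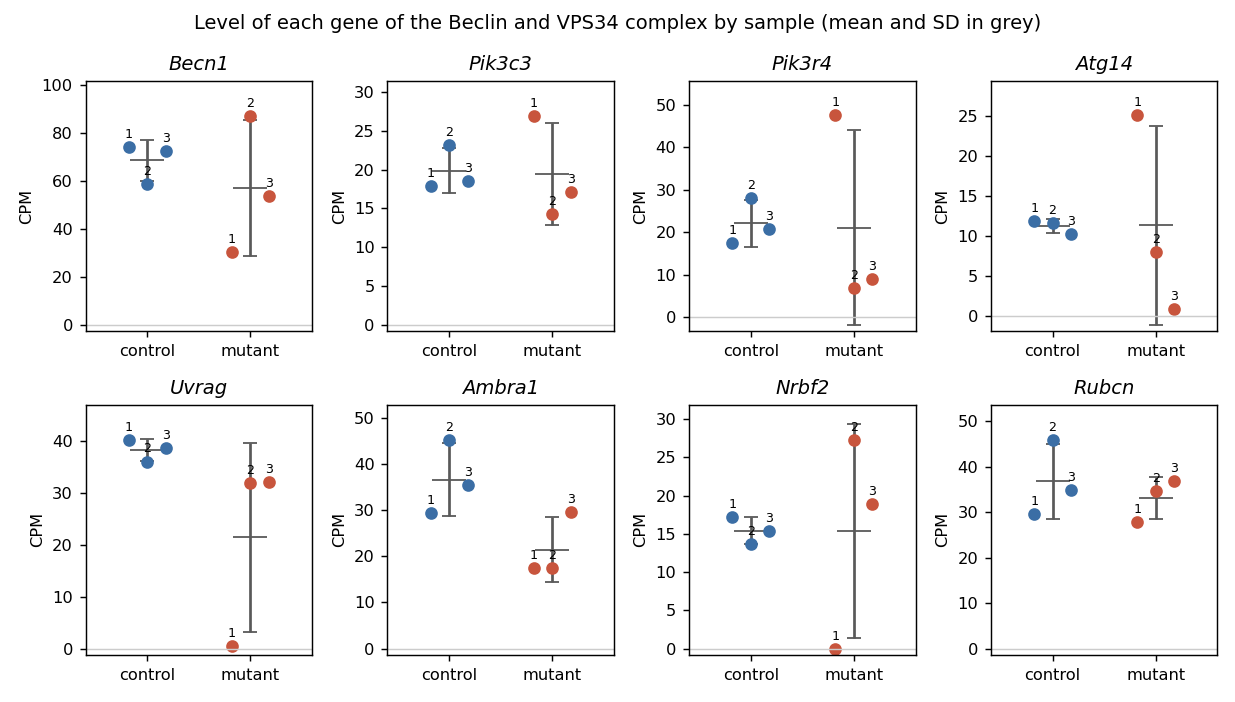
CPM after upper-quartile scaling for each of the 8 genes in the 3 control (blue) and 3 mutant (red) samples, with sample numbers beside the points and the mean and SD in grey. Mutant sample 1 held 0.437 CPM of Uvrag and 0 of Nrbf2, and mutant sample 3 held 0.806 CPM of Atg14, while the control samples of each gene lay close together.

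The kinase core came first. Becn1 (chr11:101285952-101302286, minus strand) encodes Beclin 1, the scaffold on which the ATG14 and UVRAG forms of the complex are built. Becn1 had 74.4, 58.7 and 72.8 CPM in control samples (mean 68.6 ± 8.64, SD, n = 3) and 30.6, 87.0 and 53.7 CPM in mutant samples (57.1 ± 28.4). Mutant sample 2 was above all controls and the other mutant samples were below them, so the groups overlapped. The log2 fold change was -0.26 ± 0.37 (SE), with a 95% interval from -1.10 to 0.58 and an edgeR adjusted p of 0.775. Without mutant sample 1 it was 0.02. Becn1 shares 10366 bases with Cntd1 on the opposite strand, which had at most 0.462 CPM in any sample.

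Pik3c3 (chr18:30272747-30348126, plus strand) encodes the catalytic subunit, VPS34. Its level was 17.9, 23.2 and 18.6 CPM in control samples (19.9 ± 2.88, SD, n = 3) and 26.8, 14.3 and 17.1 CPM in mutant samples (19.4 ± 6.56). The means differed little and the groups overlapped. The log2 fold change was -0.04 ± 0.39 (SE; edgeR adjusted p = 0.975), and its 95% interval ran from 0.526-fold to 1.80-fold. A larger change in either direction lay outside this interval, a smaller one did not.

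Pik3r4 (chr9:105642978-105687657, plus strand) encodes VPS15, which anchors VPS34 to membranes and regulates it. It had 17.4, 28.1 and 20.9 CPM in control samples (22.1 ± 5.48, SD, n = 3), but 47.6, 6.75 and 8.87 CPM in mutant samples (21.1 ± 23.0). Mutant sample 1 was above all controls and the other mutant samples were below all of them. With all samples the log2 fold change was -0.09 ± 0.72 (SE; edgeR adjusted p = 0.906). Without mutant sample 1, Pik3r4 was lower by the study's threshold, at a log2 fold change of -1.52 ± 0.38 (unadjusted p = 0.00511), and its adjusted p of 0.0575 stayed above 0.05. No direction could therefore be read for this gene from all 3 mutant samples.

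The subunits that set the site of action followed. Atg14 (chr14:47540893-47570649, minus strand) encodes the subunit that brings the kinase to the endoplasmic reticulum, where autophagosomes form. Atg14 was even across control samples, at 11.9, 11.7 and 10.3 CPM (11.3 ± 0.87, SD, n = 3), and spread over 25.1, 8.03 and 0.806 CPM in mutant samples (11.3 ± 12.5). The group means were equal to this precision although the mutant samples covered a 31.1-fold range. Mutant sample 3 held 8 counts (exact Poisson 95% interval 3.45 to 15.8, counting error only), where the control mean at its depth corresponds to 112 counts. The log2 fold change was -0.01 ± 0.97 (SE; edgeR adjusted p = 0.997). It was -1.36 without mutant sample 1 and 0.53 without mutant sample 3, so its direction depended on which library was kept.

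Uvrag (chr7:98885021-99141141, minus strand) encodes the subunit of the endosomal form. It had 40.2, 36.1 and 38.7 CPM in control samples (38.3 ± 2.08, SD, n = 3) and 0.437, 31.9 and 32.1 CPM in mutant samples (21.5 ± 18.2). All 3 mutant samples lay below all controls, by a little in 2 samples and almost entirely in mutant sample 1. That sample held 2 counts (exact Poisson 95% interval 0.242 to 7.22), where the control mean at its depth corresponds to 176. The log2 fold change was -0.82 ± 0.93 (SE; edgeR adjusted p = 0.711). Without mutant sample 1 it was -0.27 ± 0.24.

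The regulators and accessory proteins were less alike. Ambra1 (chr2:91730134-91918849, plus strand) encodes a scaffold that binds Beclin 1 and links it to the ULK1 kinase, a target of mTORC1. Ambra1 had 29.3, 45.2 and 35.4 CPM in control samples (36.6 ± 8.0, SD, n = 3) and 17.5, 17.4 and 29.5 CPM in mutant samples (21.5 ± 6.98). Mutant samples 1 and 2 lay below all controls, and mutant sample 3 lay just above the lowest control. The log2 fold change was -0.77 ± 0.35 (SE), with a 95% interval from -1.57 to 0.03. The unadjusted edgeR p was 0.0578 and the adjusted p was 0.268. Ambra1 was lower by the study's threshold with edgeR's TMM scaling (-0.86), with library totals alone (-1.06), with limma (-0.79) and without mutant sample 3 (-1.08, adjusted p = 0.102). With offsets for transcript length and GC content its log2 fold change was -0.17 (adjusted p = 0.866).

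Nrbf2 (chr10:67266689-67285305, minus strand) encodes a protein that binds the ATG14 form and promotes its assembly. It had 17.2, 13.7 and 15.4 CPM in control samples (15.4 ± 1.78, SD, n = 3) and 0, 27.2 and 18.9 CPM in mutant samples. Mutant samples 2 and 3 lay above all controls, while mutant sample 1 held no count where the control mean corresponds to 70.6. At that depth a 0 leaves room for up to 3 counts, or 0.655 CPM. The fitted log2 fold change was 0.01 ± 1.13 (SE; edgeR adjusted p = 0.997) with all samples and 0.57 ± 0.32 (adjusted p = 0.312) without mutant sample 1.

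Rubcn (chr16:32821703-32877766, minus strand) encodes Rubicon, which binds the UVRAG form and inhibits it. Rubcn had 29.7, 45.9 and 34.8 CPM in control samples (36.8 ± 8.28, SD, n = 3) and 27.9, 34.7 and 36.9 CPM in mutant samples (33.2 ± 4.66). It was the member with the narrowest spread among mutant samples, 1.32-fold from lowest to highest. The log2 fold change was -0.15 ± 0.29 (SE; edgeR adjusted p = 0.847), and it was 0.44 with the length and GC offsets. Rubcn shares 267 bases with Fyttd1 on the opposite strand, which had between 49.8 and 102 CPM, and reads from these bases cannot be told apart without strand.

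**Figure D2:**
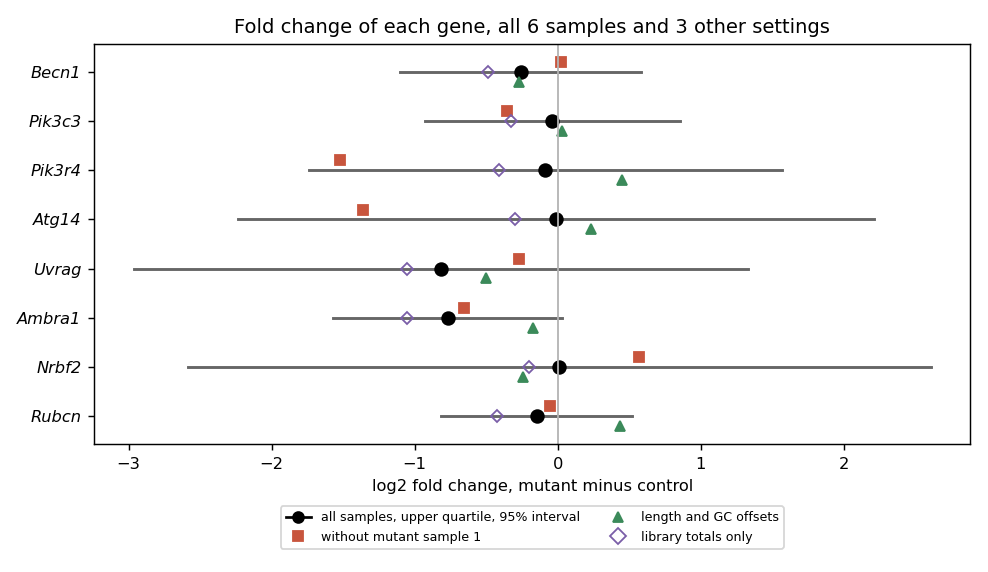
Log2 fold change of each gene, mutant minus control, with the 95% interval from edgeR over all 6 samples (black) and the value without mutant sample 1 (squares), with length and GC offsets (triangles) and with library totals alone (diamonds). Every interval includes 0, and leaving out mutant sample 1 moves Pik3r4 to -1.52, Atg14 to -1.36 and Nrbf2 to 0.57.

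The 3 near-empty values were set beside genes of similar level. Among the 6885 genes tested whose control mean lay between 11.3 and 68.6 CPM, the range of the 8 genes, 532 (7.73%) were under 0.1 of their control mean in at least 1 mutant sample and 19 (0.276%) in at least 1 control sample. Of the 8 genes, 3 (37.5%) were: Atg14, Uvrag and Nrbf2. Mutant sample 1 held 461 (6.70%) of these genes under that level, mutant sample 2 held 46 (0.668%) and mutant sample 3 held 71 (1.03%). The median gene in this range varied 1.5-fold from the lowest to the highest control sample and 2.05-fold across mutant samples. Becn1 (2.85-fold), Pik3r4 (7.05-fold), Atg14 and Uvrag (73.6-fold) exceeded that median in mutant samples, while Rubcn (1.32-fold), Ambra1 (1.70-fold) and Pik3c3 (1.87-fold) were below it.

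Ratios between partners within a sample do not depend on how the samples were scaled. Where a count is near 0, they depend on the number added to each count. The ratio of Atg14 to Uvrag compares counts of the transcripts for the autophagosome and endosome subunits, and does not measure the protein forms. It was 0.297, 0.323 and 0.266 in control samples and 46.2, 0.252 and 0.0266 in mutant samples (0.5 added to each count). Mutant samples 1 and 3 thus stood far from the controls on opposite sides, and mutant sample 2 lay just below them. The ratio of Pik3r4 to Pik3c3, the regulatory and the catalytic subunit, was 0.969, 1.21 and 1.12 in control samples and 1.77, 0.472 and 0.519 in mutant samples. The mutant samples again lay on both sides of the controls.

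The mean log2 ratio of mutant minus control samples was 1.20 for Atg14 to Uvrag, 2.08 for Rubcn to Uvrag, -0.99 for Nrbf2 to Atg14, -0.31 for Becn1 to Pik3c3, -0.54 for Pik3r4 to Pik3c3 and -0.41 for Ambra1 to Becn1. In a two-sided exact permutation test, the smallest p of the 6 ratios was 0.3, and all 6 adjusted p-values were 1. Without mutant sample 1 the differences were -1.84, 0.24, 2.67, 0.33, -1.15 and -0.67 in the same order. With 3 against 3 samples this test cannot go below 0.1. The groups overlapped for all 6 ratios.

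**Figure D3:**
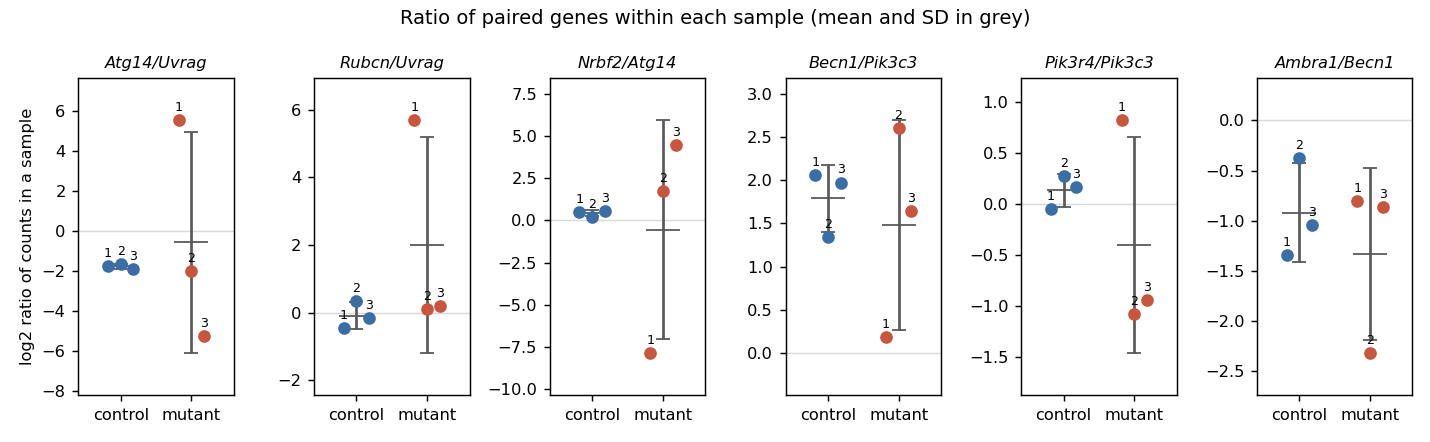
Log2 ratio of the counts of 6 gene pairs within each control (blue) and mutant (red) sample, after adding 0.5 to each count, with sample numbers beside the points and the mean and SD in grey. Each pair has its own axis, and the mutant samples spread wider than the control samples in all 6 pairs, while the groups overlap in each.

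Levels of different genes were compared per length of their longest annotated transcript, as CPM per kilobase. Becn1 was the most abundant of the 8 in control samples at 15.7 ± 1.98 CPM per kilobase (SD, n = 3), and its lowest control sample was above the highest of the next gene. Nrbf2 (8.50 ± 0.98), Uvrag (7.43 ± 0.40), Ambra1 (7.04 ± 1.54), Rubcn (6.93 ± 1.56), Pik3c3 (6.11 ± 0.89) and Pik3r4 (4.49 ± 1.11) followed, and neighbours among these 6 overlapped. Atg14 came last at 3.03 ± 0.23 CPM per kilobase, below all control values of Pik3r4. Becn1 was first in 5 of 6 samples, and in mutant sample 1 Pik3r4 was first and Becn1 was number 3. With coding length in place of transcript length, a choice made after seeing the data, Becn1 alone kept its control rank. The summed level of the 8 genes was 238, 262 and 247 CPM in control samples and 176, 227 and 198 CPM in mutant samples.

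**Figure D4:**
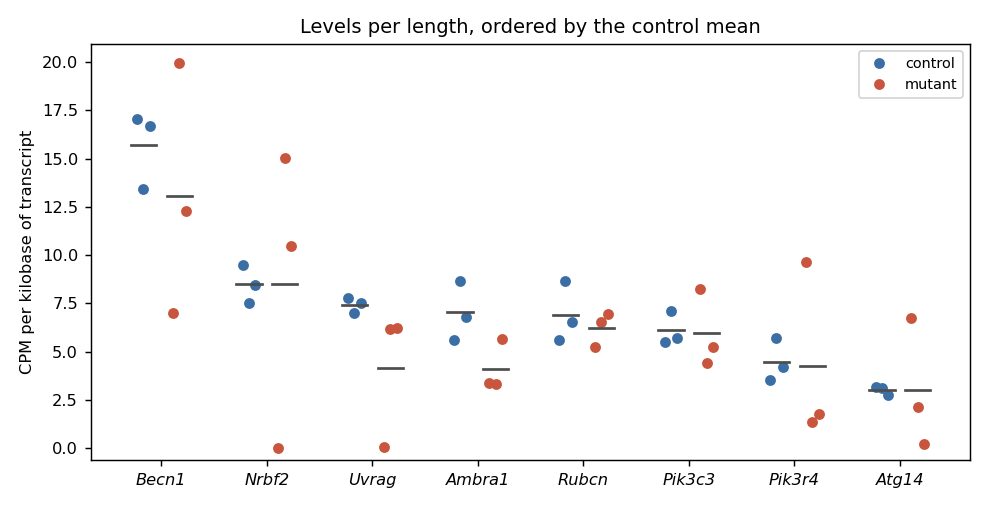
CPM per kilobase of the longest annotated transcript for the 8 genes, ordered by the control mean, with the 3 control samples in blue, the 3 mutant samples in red and the means as bars. Becn1 has the highest control values, between 13.4 and 17.1, and Atg14 the lowest, between 2.76 and 3.20.

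Genes around the complex were taken from lists. Beside them, 10.9% of all genes tested were higher and 8.92% lower by the study's threshold. An adjusted p under 0.05 was reached by 6.79%. Of 24 tested proteins that bind or modify the complex, 2 were higher and 7 lower by the study's threshold, with a median log2 fold change of 0.08, and 0 passed at an adjusted p under 0.05. The ones lower included Bcl2l1, which encodes BCL-XL, an apoptosis inhibitor that holds Beclin 1 inactive. Bcl2l1 had 56.2, 47.6 and 49.7 CPM in control samples and 22.0, 28.7 and 25.3 CPM in mutant samples, a log2 fold change of -1.01 ± 0.26 (SE; edgeR adjusted p = 0.0553). Its groups did not overlap, as for 30.4% of all genes tested. The adjusted p of Bcl2l1 was under 0.05 in 4 of 15 alternatives, over which it ran from 0.0105 to 0.262.

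Mcl1, which encodes a related Beclin 1 binding protein, went the other way, with 120, 102 and 101 CPM in control and 184, 176 and 138 CPM in mutant samples (log2 fold change 0.63, edgeR adjusted p = 0.159). Dynll1, a dynein light chain that binds AMBRA1, had a log2 fold change of 0.97 (adjusted p = 0.174). Usp10, a deubiquitinase of Beclin 1, had 35.5, 33.8 and 43.0 CPM in control and 11.8, 25.0 and 18.2 CPM in mutant samples (-1.02, adjusted p = 0.149; -0.57 with the length and GC offsets). For each of these genes the groups did not overlap, as for 30.4% of all genes tested. The genes were named for their small p, which favours such separation. Bcl2, of the same family as Bcl2l1 and Mcl1, had 22.6, 24.0 and 17.9 CPM in control and 31.6, 41.5 and 28.6 CPM in mutant samples. Its log2 fold change was 0.66 (edgeR adjusted p = 0.288), short of the study's threshold, and its groups did not overlap either. In this family of proteins that bind Beclin 1, Bcl2l1 was thus lower in mutant samples, and Mcl1 and Bcl2 were higher, with none past the adjusted test.

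The 16 tested proteins that bind PI3P had a median log2 fold change of -0.55. Of these, 0 passed the adjusted test. By the study's threshold 0 were higher (against 10.9% of all genes tested) and 3 were lower (against 8.92%). They included Ankfy1, an endosomal protein (-0.81, edgeR adjusted p = 0.213), and Wipi2, which reads PI3P on forming autophagosomes (-0.62, adjusted p = 0.229; -0.18 with the length and GC offsets). Wipi2 had 69.5, 65.4 and 63.6 CPM in control and 35.4, 56.4 and 36.9 CPM in mutant samples. Its groups did not overlap, as for 30.4% of all genes tested.

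The 11 tested genes of PI3P turnover encode phosphatases of the myotubularin family and the PIKFYVE kinase complex with its partners VAC14 and FIG4. Of these, 2 fell at an adjusted p under 0.05 and by the study's threshold, and 0 rose. Of all genes tested, 6.79% passed the adjusted test and 8.92% were lower by that threshold. Mtmr3 encodes a myotubularin phosphatase that removes the phosphate from PI3P. Mtmr3 had 71.0, 89.7 and 73.1 CPM in control samples and 33.2, 44.1 and 33.4 CPM in mutant samples. All mutant samples lay below all controls. Groups without overlap, in either direction, were found for 30.4% of all genes tested. The log2 fold change of Mtmr3 was -1.08 ± 0.24 (SE; edgeR adjusted p = 0.0464). The sign was the same in all 15 alternatives and the adjusted p was under 0.05 in 4 of them, running from 0.00372 with DESeq2 to 0.190 without control sample 3. With the length and GC offsets the log2 fold change of Mtmr3 was -0.59.

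Mtmr7, a less abundant relative of Mtmr3, had 1.92, 2.28 and 3.12 CPM in control samples and 0 in each mutant sample, where the control mean corresponds to 64.0 counts over the 3 libraries. Against a floor of 3 counts over those libraries, which covers counting error only, it was at least 21.3-fold lower (edgeR adjusted p = 0.0464). Values of 0 also occurred at higher levels. At control means of 11.3 to 68.6 CPM, 4.02, 0.189 and 0.305% of genes tested were at 0 in mutant samples 1, 2 and 3. Mtmr7 lay below that range, so these shares are not its own background. Over all genes of the count table, 30.3, 17.1 and 19.7% were at 0 in the same samples. The adjusted p of Mtmr7 was under 0.05 in 5 of 15 alternatives, running from 0.00829 to 0.245. Both calls were lost with most of the single samples left out, Mtmr3 without any 1 of the 6 and Mtmr7 without each except mutant sample 1. The list had a median log2 fold change of -0.58.

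Of the 11 tested genes for catalytic and regulatory subunits of class I and II PI3-kinases, 0 were past either threshold (median log2 fold change -0.17). Of 28 tested core autophagy genes, some also in the lists above, 1 was higher and 6 lower by the study's threshold. Over all genes tested, 10.9% were higher and 8.92% lower. The adjusted test was passed by 0 of the 28 (median 0.12). Map1lc3a, which encodes an LC3 protein of autophagosome membranes, had 250, 154 and 165 CPM in control and 252, 404 and 317 CPM in mutant samples (log2 fold change 0.77, edgeR adjusted p = 0.190). Atg2a, a lipid transfer protein, had 18.5, 32.2 and 23.6 CPM in control and 5.46, 4.95 and 12.9 CPM in mutant samples (-1.66, adjusted p = 0.113; -0.80 with the length and GC offsets). Atg9a, a lipid scramblase that seeds autophagosomes, had a log2 fold change of -1.03 (adjusted p = 0.131), and -0.42 with the offsets.

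For 3 of the lists, the counts of genes lower by the study's threshold depended on single libraries and on the offsets. For proteins that bind or modify the complex the count of 7 was 2 without control sample 3 and 2 with the length and GC offsets. For PI3P binding proteins the count of 3 was 0 without control sample 2 or control sample 3 and 1 without control sample 1. For core autophagy genes the count of 6 was 0 without control sample 2, 1 without control sample 3, 3 without mutant sample 2 and 0 with the offsets, and the count of genes higher was 4 without mutant sample 1. For genes of PI3P turnover the count of 2 stayed at 2 with the offsets and without each single sample except mutant sample 2, where it was 3. For the PI3-kinases the count of 0 was 1 without mutant sample 1 and 2 without mutant sample 2.

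**Figure D5:**
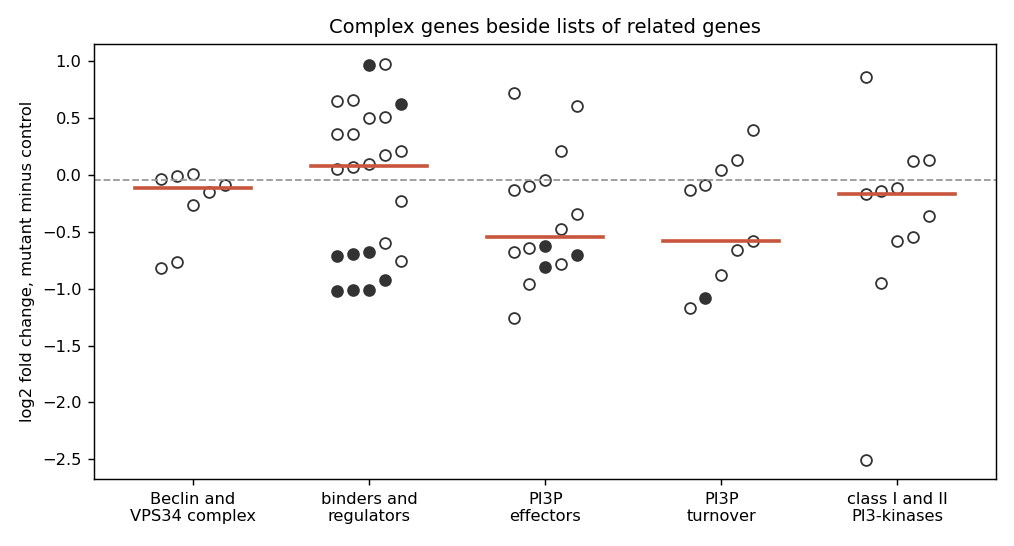
Log2 fold change, mutant minus control, of each tested gene of the complex and of 4 lists of related genes, where filled points passed the study's threshold, red bars are list medians and the dashed line is the median of all genes tested. None of the 8 complex genes is filled, and Mtmr7, at 0 in all mutant samples, is left out of the points but not of the median.

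The promoters were searched because autophagy genes are known targets of TFEB, a transcription factor held in the cytoplasm by mTORC1 that binds CACGTG, and of FOXO factors. RefSeq windows of 250 bases before to 50 bases after the gene start (GRCm38.p6) were matched for 6 of the 8 genes, in 7 windows, with none for Becn1 and Pik3c3. On either strand, CACGTG was found in 3 of the 7 windows, against 7.15% of 32851 windows of all genes. The longer TCACGTGA, which contains it, was found in 1 window, of Nrbf2, against 0.974% of all windows, and the FOXO motif TGTTTAC in 0, against 3.65%. The stretches that hold CACGTG, in capitals and 5′ to 3′ on the gene's strand, show where it lies. In Nrbf2 it begins 208 bases before the start (chr10:67285472-67285519, minus strand). In Atg14 it begins 1 base before an internal start and runs across it (chr14:47568418-47568465, minus strand), well inside the gene span given above. In Rubcn it begins 88 bases before an internal start (chr16:32868437-32868484, minus strand).
Nrbf2: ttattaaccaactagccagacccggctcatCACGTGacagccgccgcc
Atg14: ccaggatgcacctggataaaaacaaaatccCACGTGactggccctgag
Rubcn: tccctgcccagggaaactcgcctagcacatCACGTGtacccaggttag
These matches are a description of letters only, and a link to the levels of the 3 genes was not tested. In mutant sample 1, the shallowest, Nrbf2 was at 0 and Atg14 had its highest value. Neither gene had a readable direction over all samples, with log2 fold changes of 0.01 ± 1.13 and -0.01 ± 0.97 (SE). Rubcn varied least among mutant samples.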

How the data were processed

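Bulk RNA sequencing of incisors, in 3 control and 3 mutant samples, was analysed, grouped by the genotype in the labels. Per the labels, the submitters' notes name TopHat2 2.0.8 and mm10 (GRCm38). The deposited values are estimated counts for each gene, which the authors made in Partek Flow without normalization, with 21.8 to 53.9% of the non-zero values fractional. A table of the authors' own comparison, with p-values, ratios and fold changes per gene, was not used. The annotation they counted on is not given in the sources used here. No pair of replicate samples held identical values. Nothing in the sources says that a sample holds 1 animal only, so p-values measure the spread between these samples.

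Counts were rounded and compared with edgeR 4.0.16 in R 4.3.3: upper-quartile scaling, filter on low counts (minimum 10, total 15), genotype as the only term. DESeq2 1.42.0, limma 3.58.1, other scalings, no filter, the replicate number as a block, thinned control counts, offsets for length and GC content, protein-coding genes alone and leaving out each sample were alternatives. The scripts were tested on simulated data. Positions and lengths came from GENCODE M21, and promoters from RefSeq. Total counts were 31060222 to 32712448 in control and 5276557 to 11819576 in mutant samples. The exact Poisson intervals of counts and the floors cover counting error only. The intervals of fold changes rest on the SE from edgeR, which includes the spread between samples.

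The 8 genes, the lists and the tests were chosen with earlier results of these data known. Named genes were the 8, Fgfr1, from each list up to 2 genes higher and 2 lower by the study's threshold with the smallest p, and the 2 most abundant mesenchyme and muscle markers. Bcl2, Odam, Epcam, Hba-a1, Hbb-bs and Dspp were named after their values were seen. Single values of some marker genes are not reported here.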

Additional observations from a re-analysis of the deposited data

How the results depend on the processing

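In all 15 alternatives, 0 of the 8 genes had an adjusted p under 0.05. The number lower by the study's threshold was 1 with TMM scaling, library totals or limma (Ambra1), and 0 to 1 without single samples (1 without mutant sample 1, Pik3r4, and 1 without mutant sample 3, Ambra1). The median log2 fold change of the 8 was -0.42 with totals, -0.70 with limma and -0.71 with the replicate block, and -0.42 to -0.028 without single samples. Totals moved the median of all genes to -0.30 and limma moved it to -0.31. Over all genes, 1074 passed the adjusted test, against 1609 with DESeq2, 1265 with limma, 1137 with totals, 1060 with TMM, 229 without a filter, 508 with the block, 377 thinned, 135 with length and GC offsets, 54 among protein-coding genes and 76 to 606 without single samples. The share higher among genes past the study's threshold was 55.0%, against 34.9% with totals.

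Several genes near 0 changed sign. Nrbf2 was -0.069 with TMM, -0.20 with totals, -0.027 with DESeq2, -2.09 with limma, -0.0029 without a filter, -0.75 with the block and -0.25 with offsets. Pik3c3 was 0.0077 thinned and 0.030 with offsets. Atg14 was 0.042 thinned, 0.23 with offsets and 0.016 among protein-coding genes. With offsets Pik3r4 was 0.45 and Rubcn 0.44. Without single samples the ranges were -0.71 to 0.021 for Becn1, -0.35 to 0.13 for Pik3c3, -1.52 to 0.33 for Pik3r4, -1.36 to 0.53 for Atg14, -0.69 to 0.57 for Nrbf2 and -0.28 to 0.042 for Rubcn. The cause was not tested.

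Without single samples the mutant minus control log2 ratio ran from -1.84 to 3.54 for Atg14 to Uvrag, 0.24 to 3.02 for Rubcn to Uvrag, -1.15 to -0.20 for Pik3r4 to Pik3c3, -3.49 to 2.67 for Nrbf2 to Atg14, -0.87 to 0.33 for Becn1 to Pik3c3 and -0.67 to 0.088 for Ambra1 to Becn1, with sign changes for Ambra1 to Becn1 without mutant sample 2 and for Atg14 to Uvrag, Nrbf2 to Atg14 and Becn1 to Pik3c3 without mutant sample 1. With coding length, 1 of 8 control ranks of level per length was kept. Deviations from the group means correlated at 0.0472, 0.00938 and 0.0548 between same-numbered samples and at -0.0593 to 0.00808 between the others. These small values cannot decide whether same-numbered samples were paired. The block changed no member's call. Depth sets how low a level can be read: 3 counts were 0.655 CPM in mutant sample 1 and at most 0.0874 CPM in control samples. The near-empty values of Nrbf2, Uvrag and Atg14 were 0, 2 and 8 counts. The control means at the depth of those libraries corresponded to 70.6, 176 and 112 counts.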
